A study of Mus musculus with 2 samples.

Results

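Translation elongation is the step in which the ribosome reads an mRNA codon by codon. The genes described here are Eef1a1, Eef1a2, Eef1b2, Eef1d, Eef1g, Eef2 and Eef2k, which were taken as the rows whose gene ID carries one of these symbols in the GENCODE mouse annotation. All 7 were found, of 43346 gene IDs in each deposited table. Total RNA was sequenced from skeletal muscle of newborn mice, with 1 library from pup 1 and 1 from pup 2. The animals were of strain B6NCrl, at 0 days after birth, from 1 pregnancy, with no treatment or genotype difference given, and the particular muscle is not named. Both pups carry the same donor entry in the labels, and the series holds 1 group and 1 age. No contrast between groups exists, and an exact sign-flip permutation test over 2 samples cannot pass the usual threshold, so each result is a value per pup with its mean and SD (n = 2).

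The factor eEF1A, made from Eef1a1 or Eef1a2, carries aminoacyl-tRNA to the ribosome as a complex with GTP. The eEF1B complex, built from the products of Eef1b2, Eef1d and Eef1g, reloads eEF1A with GTP, eEF2 moves the ribosome to the next codon, and the calcium/calmodulin-dependent kinase encoded by Eef2k phosphorylates and inhibits eEF2. In rodents Eef1a2 is known as the form of adult skeletal muscle, heart and neurons, where it takes over from the widely expressed Eef1a1 after birth. With 1 age sampled, a change between the forms over time was not measured here.

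Expected gene counts, which are reads shared out between genes by a model, summed to 40454600 in pup 1 and 37150684 in pup 2. The 7 genes held 0.407% of them in pup 1 and 0.406% in pup 2. Of 8 myofibre markers, all 8 were above 1 TPM (a level corrected for transcript length and scaled to a fixed sum per library), with a summed 113474 TPM in pup 1 and 124927 TPM in pup 2. Markers of skin and fat stood apart between the libraries: 6 epidermal markers summed to 615 TPM in pup 1 and 10.9 TPM in pup 2, and 6 adipocyte markers to 4983 TPM in pup 1 and 889 TPM in pup 2. Cartilage markers summed to 42.9 TPM in pup 1 and 4.09 TPM in pup 2, where Snorc was at 0. The 6 fibroblast markers, led by the collagen genes Col3a1, Col1a1 and Col1a2, summed to 6147 TPM in pup 1 and 4413 TPM in pup 2. Of 6 neuronal markers 1 passed 1 TPM, and the list summed to 4.54 TPM in pup 1 and 3.95 TPM in pup 2. In whole tissue, fewer cells of a type and less RNA per cell cannot be told apart.

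The 2 eEF1A genes encode nearly the same protein, and reads are assigned between them by the bases at which they differ, so the start of their coding sequence is shown. The runs hold the first 90 coding bases of each gene, from GENCODE M21 on mm10, with Eef1a2 at chr2:181155317-181155406 and Eef1a1 at chr9:78480565-78480654, both on the minus strand, and capitals where the pair differ.
Eef1a2: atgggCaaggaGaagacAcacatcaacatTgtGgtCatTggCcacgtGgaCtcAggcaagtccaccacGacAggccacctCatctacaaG
Eef1a1: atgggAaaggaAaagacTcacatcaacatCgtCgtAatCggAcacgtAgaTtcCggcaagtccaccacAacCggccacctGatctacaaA
All 15 differences fell at the third codon position. Over the whole coding sequence, 1389 bases in Eef1a2 and 1386 in Eef1a1, identity was 79.9%, and the longest run of identical bases was 23. Of 276 base differences, 224 lay at the third, 34 at the first and 18 at the second codon position.

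The main form at birth was Eef1a1, and Eef1a2 was a small part of the eEF1A mRNA. Eef1a2 (ENSMUSG00000016349, chromosome 2, 181147653 to 181157014) was at 13.9 TPM in pup 1 and 13.5 TPM in pup 2, from 822 and 755 counts. Eef1a1 (ENSMUSG00000037742, chromosome 9, 78478449 to 78489151) was at 2197 TPM in pup 1 and 2165 TPM in pup 2, from 100095 and 91562 counts. Both pups gave the same order, far beyond their spread. The ratio of Eef1a2 to Eef1a1 was taken on the log2 scale, with 0.1 TPM added to each gene. It was -7.30 in pup 1 and -7.32 in pup 2 (mean -7.31 ± 0.01, SD, n = 2). In TPM without this addition, there were 159 Eef1a1 per Eef1a2 in pup 1 and 161 in pup 2. Eef1a2 made up 0.622% ± 0.0065 of the eEF1A TPM (SD, n = 2). Of eEF1A counts its share was 0.815% in pup 1 (95% exact Clopper-Pearson interval 0.760 to 0.872%) and 0.818% in pup 2 (0.761 to 0.878%). These intervals cover counting error only.

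Eef1a2 was detected at a middling level for this tissue. Among 12495 protein-coding genes with a mean of at least 1 TPM, whose median was 11.8 TPM, Eef1a2 ranked 5740 by mean level and Eef1a1 ranked 42. By the same measure Eef1b2 ranked 342, Eef1g 379, Eef2 385, Eef1d 471 and Eef2k 2443, and Eef1a1 alone made up 61.7% of the TPM of the 7 genes in pup 1 and 62.2% in pup 2. The 3 protein-coding genes nearest to Eef1a2 in log2 TPM over the 2 pups were Aqr, Rgs12 and Nrf1, at distances of 0.01 to 0.02. Those nearest to Eef1a1 were Mybpc1, Tpi1 and Actn2, at distances of 0.10 to 0.15. Mybpc1 encodes a myosin-binding protein of the sarcomere and was at 2127 TPM in pup 1 and 2303 TPM in pup 2.

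**Figure D1:**
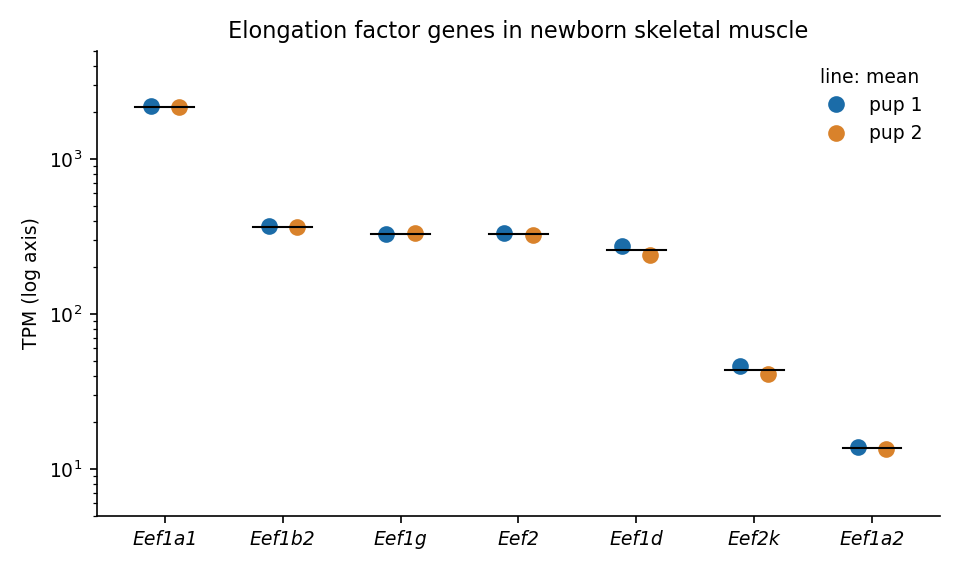
Level of each elongation factor gene in TPM on a log axis, with 1 point per pup and a line at the mean of 2. Eef1a1 stands at 2165 TPM or more in both pups, 4 genes lie between 242 and 368 TPM, and Eef2k and Eef1a2 are lower.

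Eef1a1 has many processed pseudogenes, which are reverse-transcribed copies of its mRNA, and these compete for its reads. A search of annotated transcripts for at least 90% identity over at least 200 bases found 8 copies of Eef1a1 in the deposited tables, with 90.6 to 98.6% identity. Together they held 367 counts in pup 1 and 319 in pup 2, or 0.367% and 0.349% of the Eef1a1 counts. The highest was Gm13456, with 277 counts in pup 1 and 204 in pup 2, and Gm6548, Gm6170, Gm5822 and Gm6767 each held between 13.8 and 41.0 counts in each pup. Another 10 copies are in the later annotation and were not used here. The homologous start of Gm6170, at chr1:128521371-128521460 on the minus strand of mm10, is shown because it follows Eef1a1 nearly base for base, with capitals where it differs from Eef1a1.
Gm6170: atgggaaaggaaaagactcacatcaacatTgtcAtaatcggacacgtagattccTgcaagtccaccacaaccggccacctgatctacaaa
This window differs from Eef1a1 at 3 bases and from Eef1a2 at 16. No copy of Eef1a2, Eef1b2 or Eef2k met the same limits in the tables. The copies of Eef1g (2), Eef2 (3) and Eef1d (2) held at most 0.145% of the counts of their gene in either pup, and Gm5525, a copy of Eef1g, had the most of these, with 20.9 counts in pup 1 and 12.9 in pup 2. The later annotation also holds 1 more copy of Eef1b2 and 3 more of Eef1g, 1 of them at 99.6% identity over 1342 bases. They were not used here, so these shares do not cover them. The copies of Eef2 with at least 10 counts in a pup were Gm13050 and Gm11400, at 9 to 14.0 counts.

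The 3 subunit genes of eEF1B lay close together. Eef1b2 (ENSMUSG00000025967, chromosome 1, 63176825 to 63180486), which encodes the beta subunit with nucleotide exchange activity, was at 368 TPM in pup 1 and 363 TPM in pup 2, from 7091 and 6614 counts. Eef1d (ENSMUSG00000055762, chromosome 15, 75894205 to 75909556), for the delta subunit, a second exchange factor, was at 275 TPM in pup 1 and 242 TPM in pup 2, from 5992 and 4932 counts. Eef1g (ENSMUSG00000071644, chromosome 19, 8967041 to 8978479), for the structural gamma subunit, was at 329 TPM in pup 1 and 332 TPM in pup 2, from 17195 and 16368 counts. The ranges of the 3 genes did not overlap, with Eef1d lowest in both pups. In TPM Eef1d also had the largest SD of the 7 genes (258 ± 23.2 TPM, n = 2), but this depended on the scaling. The median log2 ratio of pup 1 over pup 2 was 0.15 over all genes in TPM. On the scaled counts used between pups below, Eef1d was at 0.06, and Eef1g differed most of the 7, at -0.15. The log2 ratio was 0.15 ± 0.03 for Eef1b2 over Eef1g, -0.51 ± 0.12 for Eef1d over Eef1b2 and -0.36 ± 0.14 for Eef1d over Eef1g (SD, n = 2). The summed eEF1A level was 6.83 times the mean of the 3 subunits in pup 1 and 6.98 times in pup 2.

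The place of Eef1b2 at the top of the subunits depended on which transcripts were counted. Only 2 of its 9 models are protein coding, and 5 models annotated as targets of nonsense-mediated decay, the pathway that degrades mRNAs with early stop codons, held 45.4% of its TPM in pup 1 and 42.0% in pup 2. The protein-coding Eef1b2-209 held 48.3% ± 1.37 of the TPM, and the decay-annotated Eef1b2-205 held 34.3% ± 0.458 (SD, n = 2). Eef1b2-208, also annotated for decay, held 8.96% ± 1.79 of the TPM. The protein-coding Eef1b2-204, the longest model, held 5.07% ± 0.175 of the TPM but 14.1% of the counts in pup 1 and 14.8% in pup 2. With protein-coding transcripts only, an alternative chosen after seeing the data, Eef1b2 was at 193 TPM in pup 1 and 198 TPM in pup 2, below Eef1d at 270 and 236 TPM and Eef1g at 324 TPM in both. These shares are model estimates among overlapping transcripts. Eef1b2 also overlaps Ndufs1, a respiratory complex I gene at 208 TPM in pup 1 and 227 TPM in pup 2, on the opposite strand. The use of strand in counting is not stated, so reads from the shared part cannot be told apart.

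Eef1d was spread over more models than the other genes. Of its 18 models, 15 are protein coding, and the leading 4 were Eef1d-207 with 35.0% ± 0.804, Eef1d-213 with 30.5% ± 0.455, Eef1d-201 with 14.1% ± 1.88 and Eef1d-217 with 11.0% ± 1.54 of the TPM (SD, n = 2). The 3 protein-coding models with an exon of at least 900 bases in GENCODE M21 held 3.10% of the TPM in pup 1 and 2.26% in pup 2. By counts these 3 models, which are longer, held 7.09% in pup 1 and 5.09% in pup 2. Most of this was Eef1d-218, with 2.76% of the TPM in pup 1 and 2.26% in pup 2. That model has 2312 bases in M21 but 1721 in the deposited data, so its longest exon there may be below 900 bases. Eef1d shares part of its span with Naprt on the same strand, which had 314 counts in pup 1 and 182 in pup 2. Eef1g was almost wholly 1 model, Eef1g-201, with 98.1% ± 0.868 of its TPM.

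**Figure D2:**
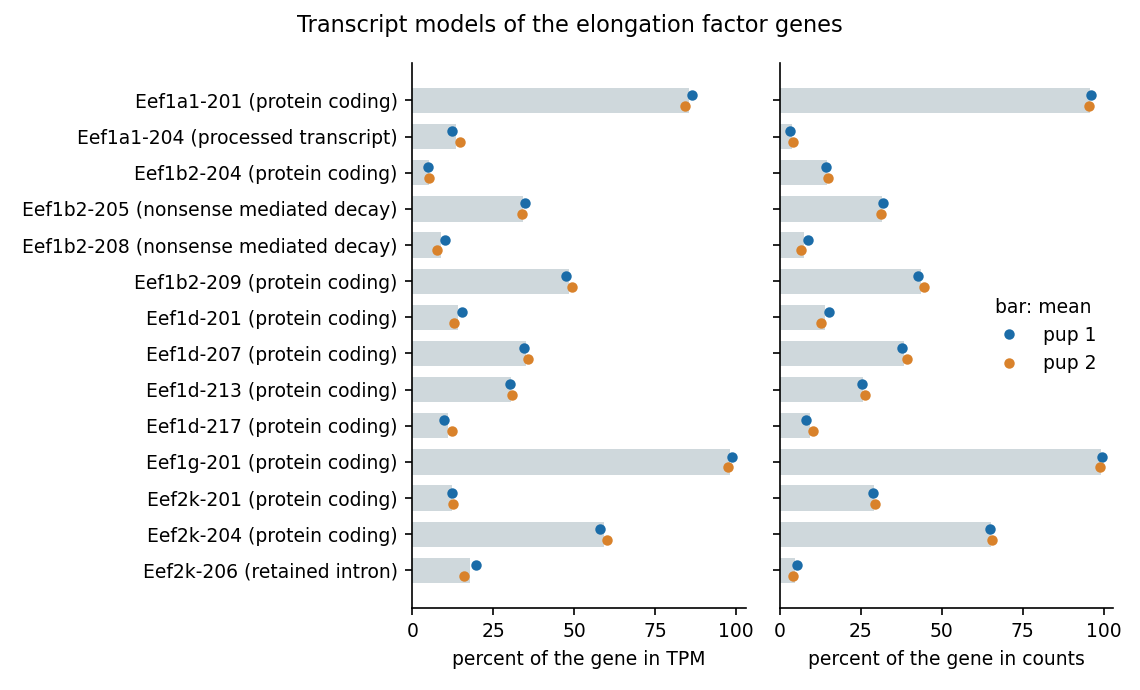
Share of each gene held by its leading transcript models, in percent of TPM on the left and percent of expected counts on the right, with a bar at the mean of 2 pups and 1 point per pup. Eef1a1 and Eef1g rest mainly on 1 model each, while Eef1b2, Eef1d and Eef2k are divided, and Eef2k-201 takes a larger share of counts than of TPM.

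Eef1a1 itself was mainly the protein-coding Eef1a1-201, with 85.3% ± 1.57 of the TPM (SD, n = 2) and 96.1% of the counts in pup 1 and 95.4% in pup 2. Eef1a1-204, a processed transcript of 505 bases without a coding frame, held 13.5% ± 1.63 of the TPM but 3.30% of the counts in pup 1 and 3.99% in pup 2. With protein-coding transcripts only, the Eef1a2 share of eEF1A TPM was 0.727%. Eef1a2 and Eef2 each had 1 model in the tables.

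Eef2 (ENSMUSG00000034994, chromosome 10, 81176631 to 81182498), the translocase, was at 333 TPM in pup 1 and 322 TPM in pup 2, from 29823 and 27338 counts. Its range overlapped that of Eef1g, and the order of these 2 genes differed between the pups. Eef1a1 was 6.66 ± 0.0797 times as high as Eef2 (SD, n = 2), with a log2 ratio of Eef2 to Eef1a1 of -2.74 ± 0.02. The log2 ratio of Eef1a2 to Eef2 was -4.57 ± 0.002 (SD, n = 2).

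Eef2k (ENSMUSG00000035064, chromosome 7, 120842831 to 120907450), the inhibitory kinase of eEF2, was at 46.0 TPM in pup 1 and 41.2 TPM in pup 2, from 3617 and 3147 counts. The log2 ratio of Eef2k to its substrate Eef2 was -2.85 in pup 1 and -2.96 in pup 2 (mean -2.91 ± 0.08, SD, n = 2). In TPM without the added 0.1, there were 7.23 Eef2 per Eef2k in pup 1 and 7.82 in pup 2. Eef2k-204 held 59.1% ± 1.37 of the Eef2k TPM, Eef2k-206, a retained-intron model, 17.9% ± 2.70, and Eef2k-201, the longest, 12.4% ± 0.343 (SD, n = 2). By counts Eef2k-204 held 64.9% in pup 1 and 65.4% in pup 2, and Eef2k-201 held 28.9% in pup 1 and 29.3% in pup 2.

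**Figure D3:**
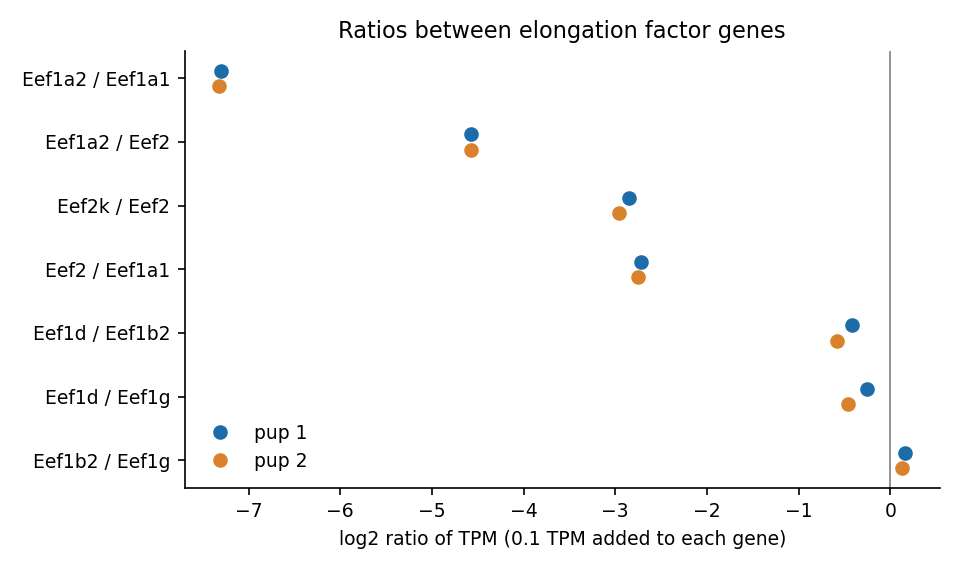
Log2 ratios of TPM between pairs of elongation factor genes, with 0.1 TPM added to each gene and 1 point per pup. Eef1a2 over Eef1a1 lies near -7.3 in both pups, and the ratios among the eEF1B subunits lie between -0.59 and 0.16.

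Sequences around annotated starts are shown for Eef2k, whose counts divide between models with different annotated starts. They are also shown for Eef1a2, Eef1a1 and Eef2, whose levels differ. Where transcription begins was not measured, and it may differ from the annotated start. Each run holds 60 bases before and 30 from the RefSeq start on GRCm38.p6, 5′ to 3′ on the strand of the gene, with capitals for the motif TATAA. The windows lie at chr2:181156986-181157075 on the minus strand for Eef1a2, chr9:78481695-78481784 on the minus strand for Eef1a1, and chr10:81176571-81176660 on the plus strand for Eef2. Those of Eef2k, on the plus strand, lie at chr7:120842771-120842860 for the outer and chr7:120843540-120843629 for the inner start.
Eef1a2: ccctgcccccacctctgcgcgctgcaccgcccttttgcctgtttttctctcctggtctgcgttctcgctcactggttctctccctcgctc
Eef1a1: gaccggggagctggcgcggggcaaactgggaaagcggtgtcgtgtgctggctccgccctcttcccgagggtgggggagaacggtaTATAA
Eef2: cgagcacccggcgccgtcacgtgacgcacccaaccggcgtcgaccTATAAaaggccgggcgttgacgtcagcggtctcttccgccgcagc
Eef2k outer start: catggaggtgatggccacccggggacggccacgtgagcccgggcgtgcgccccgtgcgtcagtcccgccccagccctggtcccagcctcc
Eef2k inner start: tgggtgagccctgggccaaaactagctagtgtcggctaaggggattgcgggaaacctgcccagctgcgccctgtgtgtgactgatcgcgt
TATAA was searched on both strands of the 300-base RefSeq windows, which run from 250 bases before to 50 after the start. It was present once, on the strand of the gene, for Eef2, before the annotated start, and for Eef1a1, 25 bases after the annotated start. None was found for Eef1a2, Eef1b2 or the 3 starts of Eef2k, and 24.9% of 32851 such windows hold it on either strand. The Eef1b2 window covers only the start of Eef1b2-204, which held 14.1% of the Eef1b2 counts in pup 1 and 14.8% in pup 2. Eef1d and Eef1g had no window to search. The model at the outer Eef2k start held 28.9% of the counts in pup 1 and 29.3% in pup 2, and the 2 models within 50 bases of the inner start held 65.6% in pup 1 and 66.2% in pup 2. In TPM the outer start held 12.2% in pup 1 and 12.6% in pup 2, and the inner start 63.3% and 66.0%. The models also differ at the 3′ end, at position 120907450 for Eef2k-201 and 120904001 for Eef2k-204. These shares therefore do not measure the use of the starts alone. Models at the third start, at position 120851189, had 0 expected counts in both pups. Such counts are shared out among overlapping models, so this 0 sets no upper limit on the reads from that start.

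Between the pups, 0 of the 7 genes passed 1.5-fold, in a table where 6.08% of 12432 genes with at least 100 mean counts did (4.9% higher in pup 1 and 1.18% higher in pup 2). On counts scaled with TMM, a method that sets most genes to no change, the log2 ratio of pup 1 over pup 2 was -0.10 for Eef1a2 (95% counting interval -0.24 to 0.04) and -0.09 for Eef1a1 (-0.11 to -0.08). Among the eEF1B subunits it was -0.12 for Eef1b2, 0.06 for Eef1d (0.003 to 0.11) and -0.15 for Eef1g. For Eef2 it was -0.10, and for Eef2k -0.02 (-0.09 to 0.05). The median of the 7 genes was -0.10, against a median of 0.00 over all genes tested, whose median absolute log2 ratio was 0.15.

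The direction of these ratios depended on the scaling. Of the 7 genes, 1 was above 0 with TMM, 4 were with total gene counts, 6 were in TPM as deposited, and 7 were with the 406 and 416 counts of the ERCC spike-in RNAs in pups 1 and 2. The median of all genes itself moved to 0.10, 0.15 and 0.26 under the last 3 scalings. Relative to that median, Eef1d was the 1 gene above under each scaling of the counts, and 2 of the 7 genes were above in TPM. Beside these values, the myofibre markers had a median log2 ratio of -0.28 and the fibroblast markers of 0.25. Of the fibroblast markers 5 of 6 were above 0, with Col1a1 at 0.49, and Pdgfra was at -0.33. All 6 epidermal and all 6 adipocyte markers passed 1.5-fold higher in pup 1, as did 4 of 4 cartilage markers with enough counts and the mast cell genes Cma1 and Cpa3. The part of all these markers in the ratios of the elongation factor genes was not tested.

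**Figure D4:**
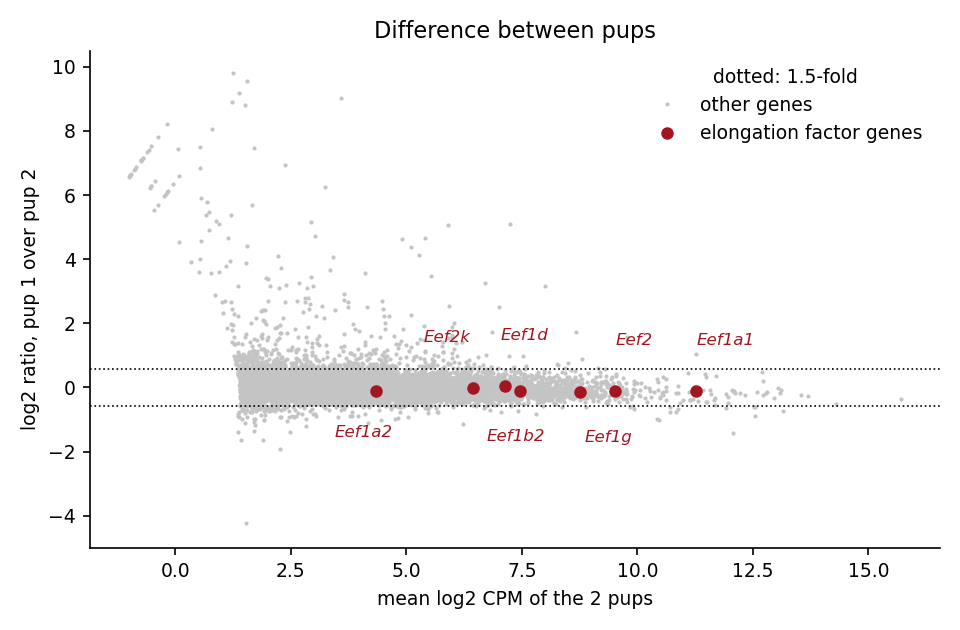
Log2 ratio of pup 1 over pup 2 against mean log2 CPM (counts scaled to library size) for 12432 genes, with the 7 elongation factor genes in red and dotted lines at 1.5-fold. All 7 lie between -0.15 and 0.06 with the TMM scaling drawn, inside the dotted lines, and 4 lie above 0 with total counts and 7 with spike-ins.

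Other genes of the elongation machinery were read from lists of the pathway. Of 6 other cytosolic elongation genes and eEF1 partners all 6 had a mean of at least 1 TPM. Tpt1, whose product binds eEF1B, was highest at 1158 ± 16.3 TPM, followed by Eif5a, which relieves stalled peptide bond formation, at 860 ± 131 TPM (SD, n = 2). Eef1e1 and Vars, both tied to the tRNA synthetase machinery, were at 31.0 and 27.7 TPM in pup 1, and at 28.9 and 22.5 TPM in pup 2. The mitochondrial factors were lower than the cytosolic eEF1A: Tufm, the mitochondrial counterpart of eEF1A, was at 104 TPM in pup 1 and 95.7 TPM in pup 2. Tsfm, its exchange factor, was at 56.4 ± 7.83 TPM, Gfm1, a counterpart of eEF2, at 40.2 ± 2.40 TPM and Guf1, the homologue of bacterial LepA, at 23.5 ± 0.354 TPM (SD, n = 2).

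Genes that modify the elongation factors were lower than Eef1a1 and Eef2. All 7 genes of diphthamide synthesis, the modification of eEF2 that diphtheria toxin uses, were at 1 TPM or more, led by Dph3 at 75.1 ± 5.06, Dnajc24 at 23.0 ± 3.57 and Dph1 at 11.6 ± 0.0778 TPM (SD, n = 2), then Dph5 at 11.5 TPM in pup 1 and 11.3 TPM in pup 2. Of the lysine methyltransferases of elongation factors 5 of 6 symbols were matched, and 4 reached 1 TPM: Eef1akmt1 at 53.4 ± 3.77, Eef1akmt2 at 26.8 ± 4.54 and Eef2kmt at 21.4 ± 1.79 TPM, and Mettl13 at 7.67 TPM in pup 1 and 6.72 TPM in pup 2. Among 15 regulators and partners in control of Eef2k, all at 1 TPM or more, Calm2, which encodes calmodulin, was at 463 ± 62.7 TPM (SD, n = 2). Rps6kb1 and Mapkapk2, kinases that phosphorylate the Eef2k product, were at 60.9 ± 5.66 and 44.2 ± 3.42 TPM, near the level of Eef2k itself.

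The neighbouring steps of translation give a scale for the 7 genes, whose median was 327 TPM. Release and rescue factors had a median of 27.7 TPM over 6 genes, with Hbs1l at 40.9 ± 0.863, Etf1 at 35.3 ± 1.77, Gspt1 at 29.5 ± 5.20 and Abce1 at 25.9 ± 1.56 TPM. Initiation factors had a median of 68.1 TPM over 14 genes, with the eIF4E-binding inhibitor Eif4ebp1 at 337 ± 0.785 and the helicase Eif4a1 at 163 ± 39.4 TPM highest, then Eif3h at 151 ± 6.10 and Eif4a2 at 114 ± 10.9 TPM. The mRNAs of Eef1a1 and Eef2, like those of ribosomal proteins, carry the 5′ terminal oligopyrimidine (TOP) tract that places them under mTOR control, and 16 other TOP mRNAs had a median of 278 TPM, led by the ribosomal protein genes Rps19 at 1292 ± 62.4 TPM (SD, n = 2) and Rpl32 at 1292 TPM in pup 1 and 1249.9 TPM in pup 2. Tpt1 followed, then Rplp0 at 737 ± 2.23 TPM (SD, n = 2). No gene of these 8 lists passed 1.5-fold between the pups among those with at least 100 mean counts. Over all 12432 genes with that many counts, 6.08% did.

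**Figure D5:**
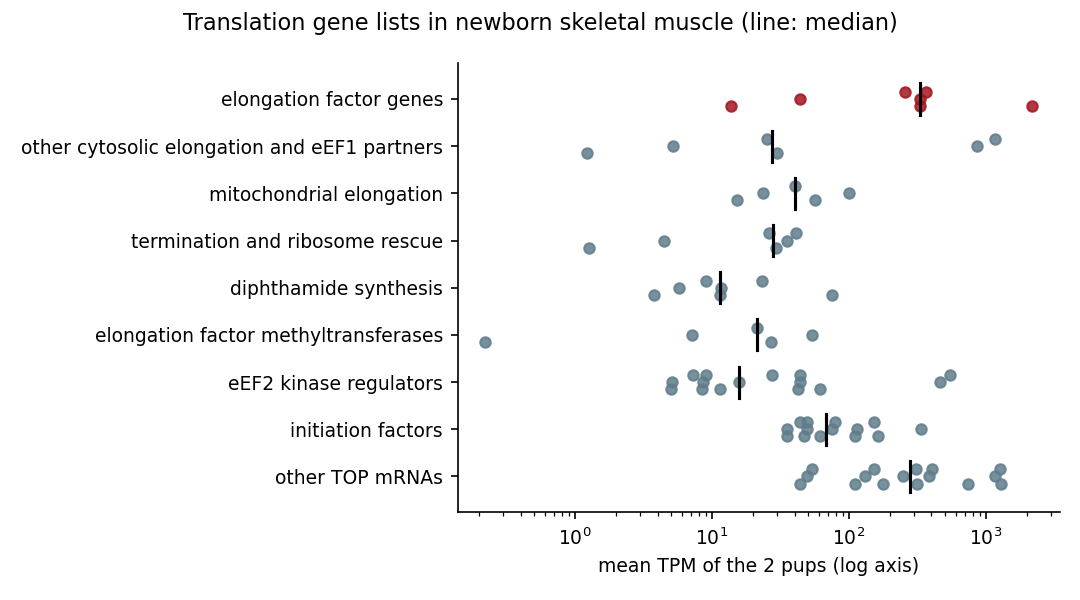
Mean TPM of 2 pups on a log axis for each gene of the elongation factor set and of 8 translation lists, with a line at the median of each list. Eef1a1 is the highest gene plotted, and Eef1a2 lies between the medians of the diphthamide genes at 11.4 TPM and the eEF2 kinase regulators at 15.7 TPM.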

How the data were processed

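Total RNA longer than 200 bases, 10 ng per library, was sequenced from 2 samples. The authors deposited, per the file headers, an expected count per gene and transcript, TPM scaled by effective length, their posterior means, and the share of a gene in each transcript as a percent, which was recomputed from the TPM here. Quantification used mm10 and GENCODE M4, per the accompanying description files. Which aligner and quantifier were used is not given in the sources used here. Names and positions came from GENCODE M21 of the same build, and 42462 of 43346 gene IDs matched. Ratios left out the spike-ins and 26248 rows named by a number, with 36 counts in pup 1 and 29 in pup 2.

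Ratios within a pup used log2 of TPM with 0.1 added. Ratios between pups used expected counts rounded to whole numbers, TMM scaling in edgeR 4.0.16 (R 4.3.3), a prior count of 2 and genes with at least 100 mean counts, with DESeq2 1.42.0 size factors, total counts and spike-ins as alternatives. The code was tested on simulated data. Copies were found with BLAST 2.17.0, and tables were handled in Python 3.11.15 with pandas 2.3.3, numpy 2.4.6, scipy 1.17.1 and Biopython 1.88. Intervals are 95% exact Clopper-Pearson and cover counting error only, since the tables hold no molecular identifiers and several reads may stem from 1 molecule. Nothing shows how far the 2 samples were handled separately, so their SD may be partly technical.

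All 7 genes were named, with up to 4 genes of highest mean TPM per translation list, any list gene past 1.5-fold, transcripts with at least 10% of a gene in either pup, the 3 nearest genes in level of each eEF1A gene, and copies with at least 10 counts. The rule also covers the cell type marker lists, which are given here mainly as sums and counts, and 1 list gene that the rule names is not reported here. The genes and lists were chosen with earlier results of these data known.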

Additional observations from a re-analysis of the deposited data

How the results depend on the processing

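The log2 ratio of Eef1a2 to Eef1a1 was -7.08 with protein-coding transcripts only and -7.22 with 1 TPM added to each gene, beside -7.31. The log2 ratio of Eef2k to Eef2 was -3.20 with protein-coding transcripts only, beside -2.91, and the Eef1a2 percent of eEF1A TPM was 0.727 in place of 0.622. Posterior means, counts per kilobase of effective length and the counts of copies added moved each of these 3 values by less than 1 SD between pups, as did 1 TPM added for Eef2k to Eef2. Leaving out either pup gave -7.32 to -7.30 for Eef1a2 to Eef1a1, -2.96 to -2.85 for Eef2k to Eef2 and 0.617 to 0.627% for the Eef1a2 share, and gives no value for a count between pups. The count of genes past 1.5-fold was 0 of 7 with DESeq2 size factors, total counts, spike-ins, a minimum of 10 mean counts and posterior mean counts, and 0 past 2-fold. The order of Eef1b2 among the subunits changed with protein-coding transcripts only, at 195 ± 3.75 TPM in place of 366 ± 3.56 TPM (SD, n = 2). No paired analysis was possible because the series holds 1 group. The limits are 2 libraries without a contrast, 1 age, the sharing of reads among transcript models, unstated strand use and few spike-in counts, 406 in pup 1 and 416 in pup 2.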

Other observations

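Several small RNA genes lie within the elongation factor genes, and the deposited values for them are few. Snora41, a snoRNA gene inside Eef1b2, had 5 counts in pup 1 and 6 in pup 2. Snord37, inside Eef2, had an effective length of 0, so that it can hold no counts in these tables. Gm15774, annotated antisense to Eef2k, had 16.1 counts in pup 1 and 15.1 in pup 2, against 3617 and 3147 for Eef2k.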
